A study of Mus musculus with 3 samples.

Results

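Long Twist1 ChIP-seq peaks, those called over 500 bp or more, made up 183 of 10965 peaks in endocardial cushions (ECCs), 423 of 48965 peaks in limb buds and 91 of 7538 peaks in PNST cells, 697 of 67468 peaks in all. The limb bud list holds several times more peaks and tags than the limb bud set described in the study's text, so that the limb bud values given here are those of the deposited list and not of that set. The peaks were chosen by their length in the deposited lists, so that their length and the tag counts that go with it describe the selection and are no test of it. Chromatin bound by Twist1 was precipitated with an anti-Twist1 antibody from mouse ECCs of the atrioventricular canal at E12.5, from forelimb buds at E10.5 and from a peripheral nerve sheath tumor (PNST) cell line in culture, all given as strain FVB/N. Tissue of several litters, or cells of a pair of plates, was pooled into 1 sample for each tissue, with no treatment given. The tumor sample is 1 cell line, whose genotype the labels do not give. The study's introduction names NF1 and p53 mutations as a cause of such tumors in mice. There are no replicates, so that a difference between tissues could not be set against the variation between samples, and the intervals given here cover the number of peaks only. Many long peaks lie in clusters or are copies of each other, while the intervals treat peaks as independent, so they can be too narrow. Where values for the tissues are listed without names, the order is ECCs, limb buds, PNST cells.

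Twist1 belongs to the basic helix-loop-helix transcription factors, which recognise the E-box, 5′-CANNTG-3′, and is known for its part in mesenchymal cells of the heart cushions and limb and in tumor cells. A factor bound at a short site usually gives a narrow peak. Broad pile-ups of reads are a familiar feature of repeated sequence, where the reads of many genomic copies can be placed on the few copies that an assembly holds. The mouse genome holds tandem satellite DNA at its centromeres, arrays of ribosomal RNA genes, clusters of recently duplicated genes and nuclear copies of mitochondrial DNA. The lists do not say how reads that match several positions were treated.

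Bases around the summits of some long peaks show what kind of sequence the peaks were called on. They were chosen after the values were seen and are given on the + strand of mm9. In the first set, 101 bp centred on a summit are shown with each E-box in capitals. The set holds peaks called in all 3 tissues, peaks in gene clusters and peaks called in 1 tissue.
Limb bud peak with the most tags, chr17:39984103-39984203: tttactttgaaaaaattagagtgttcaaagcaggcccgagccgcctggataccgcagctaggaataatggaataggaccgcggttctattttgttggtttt
ECC peak with the most tags per 100 bp, chr2:98506949-98507049: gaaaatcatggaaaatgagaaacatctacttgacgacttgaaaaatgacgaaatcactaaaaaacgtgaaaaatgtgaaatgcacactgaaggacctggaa
ECC peak 29890 bp from Rpusd4, chr9:35112988-35113088: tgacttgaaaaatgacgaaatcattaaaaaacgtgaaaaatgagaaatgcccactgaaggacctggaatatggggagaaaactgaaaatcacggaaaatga
PNST peak between Ly6c1 and Ly6c2, chr15:74917184-74917284: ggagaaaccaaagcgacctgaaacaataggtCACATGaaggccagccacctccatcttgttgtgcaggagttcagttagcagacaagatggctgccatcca
Limb bud peak near Gm15319, chr8:19924603-19924703: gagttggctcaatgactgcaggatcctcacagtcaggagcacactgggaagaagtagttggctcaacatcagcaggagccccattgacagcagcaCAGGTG
Limb bud peak in Sfi1, chr11:3043385-3043485: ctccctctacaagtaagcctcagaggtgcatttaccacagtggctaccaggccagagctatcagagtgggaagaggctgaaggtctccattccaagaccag
ECC peak among Snord116l1 copies, chr7:67036700-67036800: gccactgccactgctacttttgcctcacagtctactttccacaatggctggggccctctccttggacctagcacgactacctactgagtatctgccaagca
Limb bud peak of the dispersed family, chr3:158542221-158542321: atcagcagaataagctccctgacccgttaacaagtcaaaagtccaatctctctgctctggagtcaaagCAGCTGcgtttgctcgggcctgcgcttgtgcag
Longest PNST peak, chr15:61645343-61645443: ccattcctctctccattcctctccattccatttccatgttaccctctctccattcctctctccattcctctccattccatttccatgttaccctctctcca
PNST peak in single-copy sequence, chr15:61503322-61503422: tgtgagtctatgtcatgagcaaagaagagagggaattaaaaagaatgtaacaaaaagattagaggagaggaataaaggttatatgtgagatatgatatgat
PNST peak in a mitochondrial copy, chr1:24622703-24622803: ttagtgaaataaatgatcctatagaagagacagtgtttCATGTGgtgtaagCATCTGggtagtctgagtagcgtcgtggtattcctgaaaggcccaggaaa
Of these 11 windows, 4 hold an E-box, namely those by Ly6c1 and Ly6c2, near Gm15319, in the dispersed family and in the mitochondrial copy. The chromosome 2 and chromosome 9 stretches read alike and are those of the major satellite, the repeat of mouse centromeric heterochromatin. The chromosome 17 stretch is part of the 18S ribosomal RNA gene. Both names come from general knowledge of these sequences and not from the annotation.

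The second set shows loci in which the sequence matched itself after a fixed shift, as in a tandem repeat. Here 151 bp are centred on the summit, and the capitals mark a single repeat unit that starts at the summit.
ECC peak of a locus called long in all tissues, unit of 40 bp, chr1:183673472-183673622: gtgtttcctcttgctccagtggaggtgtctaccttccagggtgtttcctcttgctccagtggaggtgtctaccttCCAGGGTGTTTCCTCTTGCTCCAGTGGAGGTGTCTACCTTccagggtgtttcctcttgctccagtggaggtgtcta
PNST peak near D5Ertd579e, unit of 33 bp, chr5:37052124-37052274: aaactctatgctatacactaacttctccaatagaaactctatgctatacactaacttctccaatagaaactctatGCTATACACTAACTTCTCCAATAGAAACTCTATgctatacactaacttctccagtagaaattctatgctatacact
PNST peak near Snrpe, unit of 47 bp, chr1:135492408-135492558: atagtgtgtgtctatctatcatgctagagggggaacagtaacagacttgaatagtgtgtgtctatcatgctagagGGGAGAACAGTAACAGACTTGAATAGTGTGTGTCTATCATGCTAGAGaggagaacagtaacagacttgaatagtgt
Limb bud peak in Mid1, unit of 31 bp, chrX:166444388-166444538: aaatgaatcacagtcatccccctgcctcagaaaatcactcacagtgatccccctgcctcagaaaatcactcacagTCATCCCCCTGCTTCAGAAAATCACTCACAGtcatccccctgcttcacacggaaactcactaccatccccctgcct
No window of the second set holds an E-box. At the shift given, 91.8%, 90.8%, 70.6% and 65.2% of the bases of these loci matched, respectively, the last of them under the 70% used to call a tandem repeat.

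The share of peaks that were long was 1.67% in ECCs (95% Wilson interval 1.45 to 1.93) and 0.864% in limb buds (0.786 to 0.95), with 1.21% in PNST cells (0.984 to 1.48). The headers of the lists counted 3149934 (ECC), 14893391 (limb bud) and 11823220 (PNST) tags after duplicates were removed. This came to 58.1, 28.4 and 7.7 long peaks per 1000000 tags. Few as they were, long peaks held 22.1%, 11.2% and 19.5% of all tags in peaks. They covered 7.72%, 4.5% and 8.18% of the bases under peaks.

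The median long peak measured 673 bp, 666 bp and 810 bp, and the longest 5879, 5904 and 5821 bp. At least 1000 bp were covered by 43, 93 and 35 peaks and at least 2000 bp by 9, 22 and 10. A long peak held a median of 54 tags in ECCs and 88 in limb buds, with 103 in PNST cells. Scaled to length, this was 6.88, 12.47 and 11.11 tags per 100 bp. Peaks under 500 bp held 3.47, 6.67 and 5.51 tags per 100 bp. Set against the mean of each library over the genome, the median long peak was 40.8 times higher, 15.7 times and 17.6 times.

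Fold enrichment, the deposited ratio of tags at a peak to a background, went the other way. The headers name no control file and a background range of 10000 bp, while the study's methods name a genomic DNA control, so that which background the ratio refers to could not be settled. Its median in long peaks was 8.03, 6.3 and 5.61, against 27.37, 14.44 and 15.17 in peaks under 500 bp. The length by which the peaks were chosen may enter this ratio, and its part was not tested. The deposited counts keep at most 1 tag for each position and strand, which sets a ceiling of 200 tags per 100 bp. Densities over 100 tags per 100 bp were reached by 3 long peaks in ECCs and 2 in limb buds, with 2 in PNST cells.

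**Figure D1:**
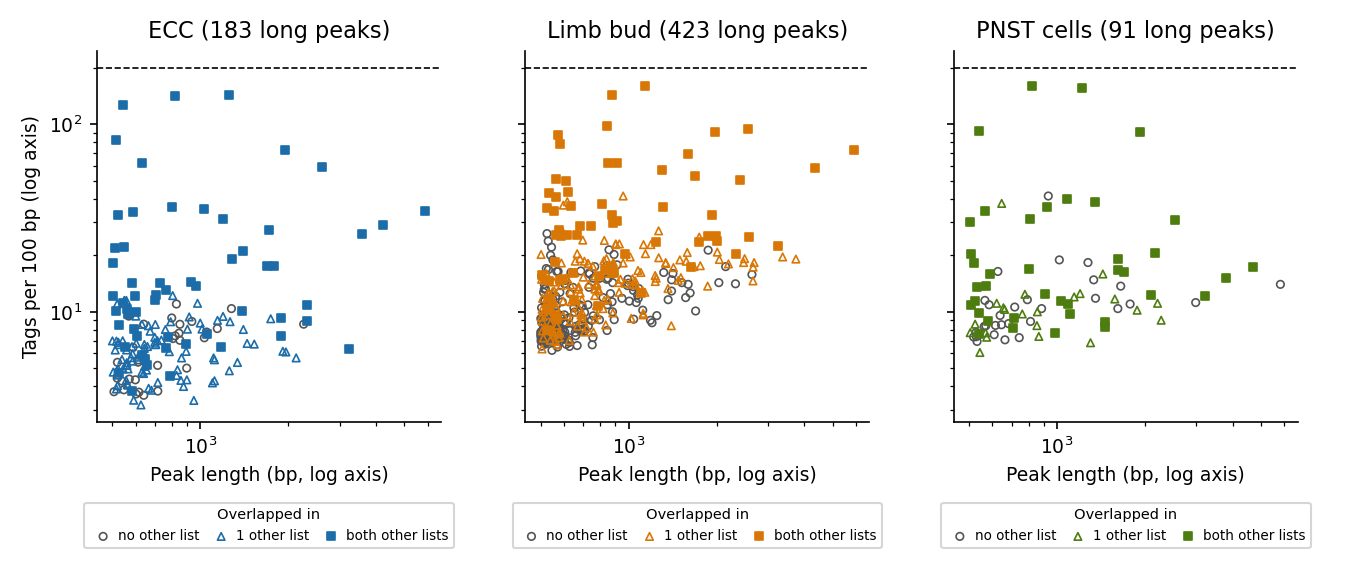
Length of each long peak in bp (horizontal log axis) against its tags per 100 bp (vertical log axis) in the 3 lists, with filled squares for peaks overlapped in both other lists, triangles for 1 other list and open circles for no other list, and a dashed line at the ceiling of 200 tags per 100 bp. The densest peaks are filled squares in each tissue, up to 142.6, 159.8 and 159 tags per 100 bp, while the longest PNST peak is an open circle.

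At the length that defines them, the long peaks were not set apart from their neighbours. The shortest long peak measured 500 bp in ECCs (35 tags, on chromosome 5 between Speer4d and Speer7-ps1) and 500 bp in limb buds (37 tags, on chromosome 5), with 503 bp in PNST cells (152 tags, 3615 bp from C230081A13Rik). Just outside lay peaks of 499 bp in ECCs (16 tags, on chromosome 3, 12968 bp from Slc16a1) and 499 bp in limb buds (55 tags, 174 bp from Speer7-ps1), with 495 bp in PNST cells (134 tags, beside Smo).

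A larger share of long peaks than of all listed peaks was overlapped in the other tissues. A peak counted as overlapped when a single peak of the other list covered at least 5% of its length. Of 183 long ECC peaks, 58 (31.7%, 95% Wilson interval 25.4 to 38.8) were overlapped in both limb buds and PNST cells, against 5.85% of all ECC peaks. In limb buds, 64 of 423 long peaks (15.1%, 12 to 18.9) were overlapped in both other tissues, against 1.36% of all limb bud peaks. The count was 39 of 91 in PNST cells (42.9%, 33.2 to 53.1), against 9.03% of all PNST peaks. In each tissue the interval for long peaks lay above the share of all peaks. A longer peak has more bases by which to meet another. With a reciprocal overlap of 50% of both peaks, the shares of long peaks were 14.8%, 6.62% and 20.9%. No share of all peaks is given for this rule, so that these values cannot be set against a background.

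Pair by pair, 80.3% of long ECC peaks were overlapped by a limb bud peak (147 of 183, background 33.1%) and 32.8% by a PNST peak (60 of 183, background 6.76%). Among long limb bud peaks, 48.2% met an ECC peak (204 of 423, background 7.61%) and 21.7% a PNST peak (92 of 423, background 2.61%). For long PNST peaks, 42.9% met an ECC peak (39 of 91, background 10.3%) and 67% a limb bud peak (61 of 91, background 17.2%). All 39 long PNST peaks met by an ECC peak were also met by a limb bud peak.

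Long peaks found in 1 tissue only numbered 34 of 183 in ECCs (18.6%, 13.6 to 24.8), where 66% of all peaks were overlapped by no other tissue. In limb buds they numbered 191 of 423 (45.2%, 40.5 to 49.9), against 91.1% of all peaks, and in PNST cells 30 of 91 (33%, 24.2 to 43.1), against 81.5% of all peaks. The lists differ in depth, with the fewest tags in ECCs, and the part of depth in these shares was not tested. Under the reciprocal overlap of 50%, the share of long peaks found in 1 tissue was 35.5%, 64.8% and 60.4%, again without a share of all peaks for this rule.

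**Figure D2:**
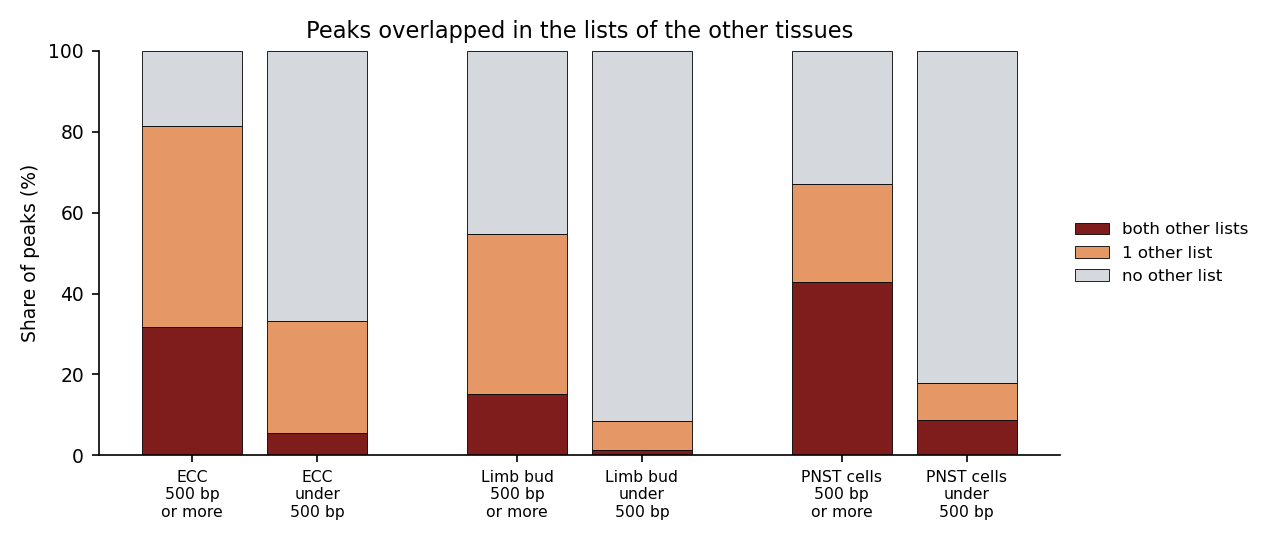
Stacked bars give the share of peaks (%) met by peaks in both other lists, in 1 other list and in no other list, for peaks of 500 bp or more and under 500 bp in each tissue. Overlap in both other lists covers 31.7%, 15.1% and 42.9% of long peaks by tissue, and 5.42%, 1.24% and 8.62% of shorter peaks.

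Long peaks shared by all 3 tissues were the densest. In ECCs, long peaks overlapped in both other tissues held a median of 12.28 tags per 100 bp, against 5.973 for those overlapped in 1 and 6.757 for those in none. The same medians were 26.62, 13.72 and 9.184 for limb buds, then 15.91, 10.1 and 10.4 for PNST cells. Those overlapped in both other tissues held 73.2% of all tags in long ECC peaks, 44.8% in limb buds and 66.7% in PNST cells.

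When long peaks of the 3 lists that touch were joined, they formed 524 loci. A peak of any length was listed for each tissue at 81 of them (15.5%), and a long peak was listed for each tissue at 25. These 25 loci, of which 4 lay on sequence not placed on a chromosome, took in 84 of the 697 long peaks. They held 55.3% of the tags in long ECC peaks, 33.9% in limb buds and 58.7% in PNST cells. A further 82 loci were long in ECCs and limb buds, 20 in limb buds and PNST cells and 1 in ECCs and PNST cells. Long peaks of ECCs alone formed 68 loci, those of limb buds 288 and those of PNST cells 40.

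The locus with the most tags lay at chr17:39979929-39985845, which holds the 18S stretch shown above and the annotated pseudogene AY036118. It gave 2022 tags in ECC chromatin, 4302 in limb bud chromatin and 789 in that of PNST cells. Limb buds were highest in tags as deposited, and ECCs were highest per 1000000 filtered tags, with 642 against 289 and 66.7. Only 2542 bp of the locus were called in PNST cells, while nearly all of its 5917 bp were called in the other tissues. A locus on chromosome 6 of similar sequence, chr6:3150745-3151776, gave 363, 569 and 335 tags.

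The satellite loci on chromosome 2 behaved differently, in that tags hardly changed with depth. At chr2:98506267-98507523, over the predicted gene Gm10800, there were 1792, 1810 and 1886 tags. At chr2:98502341-98503246, over Gm10801, the tags were 1167, 1252 and 1305. At chr2:98503729-98504333 they were 424, 505 and 496. In tags per 100 bp, the first of these loci held 143, 160 and 155 and the second 142, 143 and 159. No other locus called long in all tissues was as dense or as near to the ceiling of 200. Fold enrichment at the trio was between 4.76 and 5.31. The similar locus on chromosome 9, chr9:35112776-35113319, gave 685, 691 and 690 tags, but only the ECC peak reached 500 bp. It lay 29890 bp from Rpusd4 with a fold enrichment of 28.57, 27.55 and 27.89. A locus of this family inside Mdga2, chr12:68160143-68160775, was called long in all tissues with far fewer tags, 37, 78 and 79, and with fold enrichments of 56.22, 58.71 and 57.53. Depths differ by more than these tags do, and whether the limit of 1 tag per position sets the satellite counts was not tested.

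At other common loci, the counts were highest in the deeper limb bud library. The locus by Tcte2, chr17:13743475-13746101, gave 1541, 2406 and 815 tags. Between Ly6c1 and Ly6c2, genes of surface antigens of blood cells, chr15:74916397-74917505 gave 288, 888 and 432 tags with fold enrichments of 34.41, 17.27 and 18.63. The locus chr8:19923712-19929919 between 6820431F20Rik and Gm15319 gave 923, 1950 and 840 tags, and chr8:56203883-56209065 gave 347, 1206 and 178. On unplaced sequence, chrUn_random:5495300-5497288 gave 1414, 1790 and 1746 tags and chr8_random:679405-683766 gave 1219, 2544 and 755. Limb buds had the most tags at each of these loci, and PNST cells the fewest at all but the Ly6c and unplaced chrUn_random loci, where ECCs had the fewest.

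Narrower common loci lay inside or near single genes. Inside Filip1l, which encodes a filamin-interacting protein, chr16:57391215-57391801 gave 200, 287 and 195 tags at fold enrichments of 27.21, 26.52 and 25.53. Inside Apool, which encodes a mitochondrial inner membrane protein, chrX:109484281-109484871 gave 25, 145 and 94 tags. Between Cerk, the ceramide kinase gene, and Tbc1d22a, chr15:86025110-86025773 gave 112, 170 and 103 tags at fold enrichments of 39.05, 35.16 and 34.44. The 40-bp repeat shown above, inside Dnahc14 at chr1:183673024-183674198, gave 76, 264 and 55. Some loci were listed for all tissues but not long in each. Beside Smo, which encodes the Hedgehog signal transducer Smoothened, chr6:29697849-29699041 gave 372, 605 and 182 tags and was long in ECCs and limb buds. In Jarid2, a gene of a Polycomb complex member, chr13:44964929-44965476 gave 121, 152 and 103 and was long in ECCs.

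Scaled to 1000000 filtered tags, the order changed. ECCs were highest at 22 of the 25 common loci and limb buds at 3, and PNST cells were lowest at 19. The median over the 25 loci was 91.4, 38.2 and 23.3 tags on this scale, and the highest tissue exceeded the lowest by a median of 4.09 times (range 1.23 to 9.63). The redundant rate in the list headers, the share of tags removed as duplicates, was 0.45 in ECCs and 0.35 in limb buds, with 0.29 in PNST cells, in the same order. Its part in these values was not tested.

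**Figure D3:**
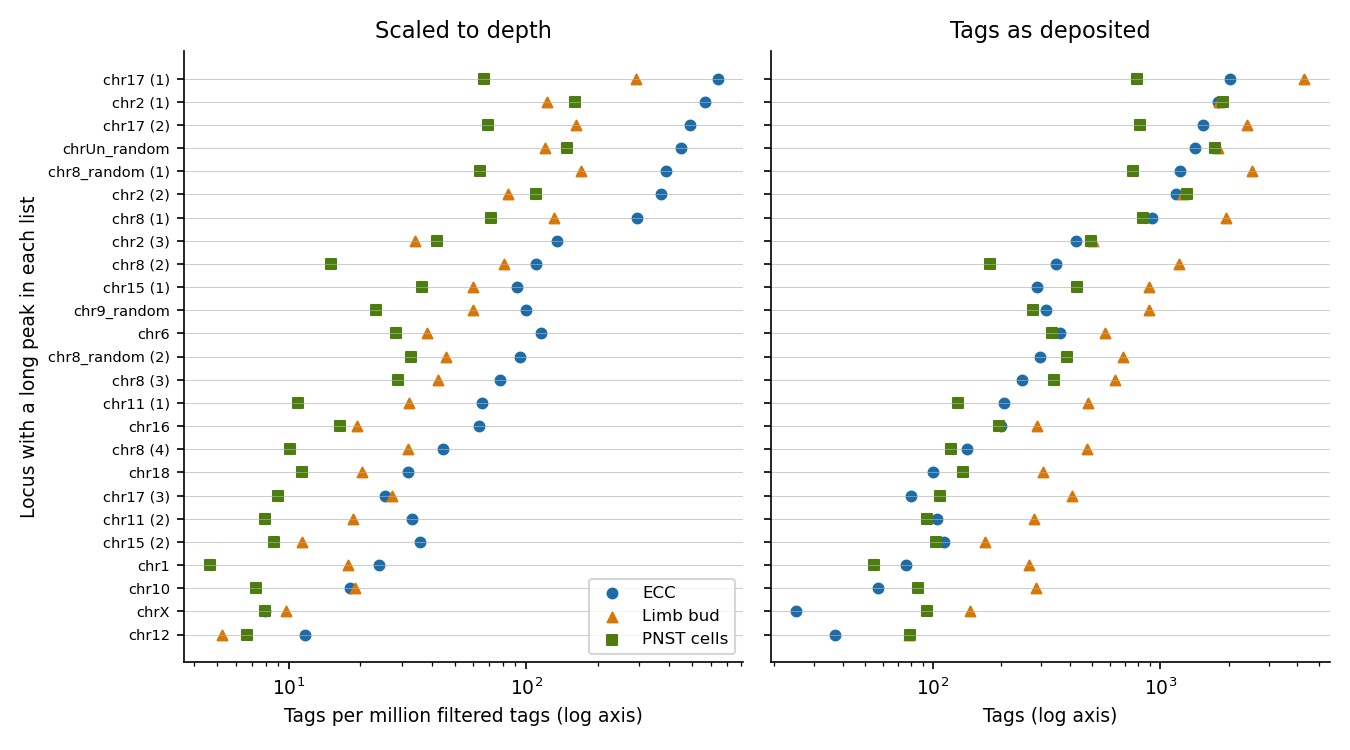
Each row is a locus with a long peak in all 3 lists (25 in all, labelled by chromosome and number), with tags per 1000000 filtered tags on the left and tags as deposited on the right (log axes), for ECCs (circles), limb buds (triangles) and PNST cells (squares). ECCs are farthest right in 22 of 25 rows on the left, and the 3 symbols nearly coincide on the right at the chromosome 2 loci.

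Long peaks were spread unevenly over the chromosomes. Chromosome 8 with its unplaced sequence 8_random held 54 of 183 long ECC peaks (29.5%, 23.4 to 36.5) and 117 of 423 long limb bud peaks (27.7%, 23.6 to 32.1), against 5.19% and 4.86% of all peaks. In PNST cells it held 12 of 91 (13.2%, 7.71 to 21.6), against 4.48%. On 8_random itself, long peaks were 15 of 32, 41 of 71 and 4 of 8. Chromosome 5 held 65 long peaks in limb buds (15.4%, against 5.84% of all peaks) and 18 in PNST cells (19.8%, against 5.73%). In ECCs it held 11 (6.01%), close to its 5.96% of all peaks. Chromosome 15 held 10 in PNST cells (11%, against 4.11% of all peaks). Sequences not placed on a chromosome held 24 long peaks in ECCs (13.1%, 8.97 to 18.8) and 64 in limb buds (15.1%, 12 to 18.9), with 10 in PNST cells (11%, 6.08 to 19.1), against 2.85%, 2.66% and 3.7% of all peaks. Y_random was an exception, with 84, 837 and 55 peaks and none of them long.

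**Figure D4:**
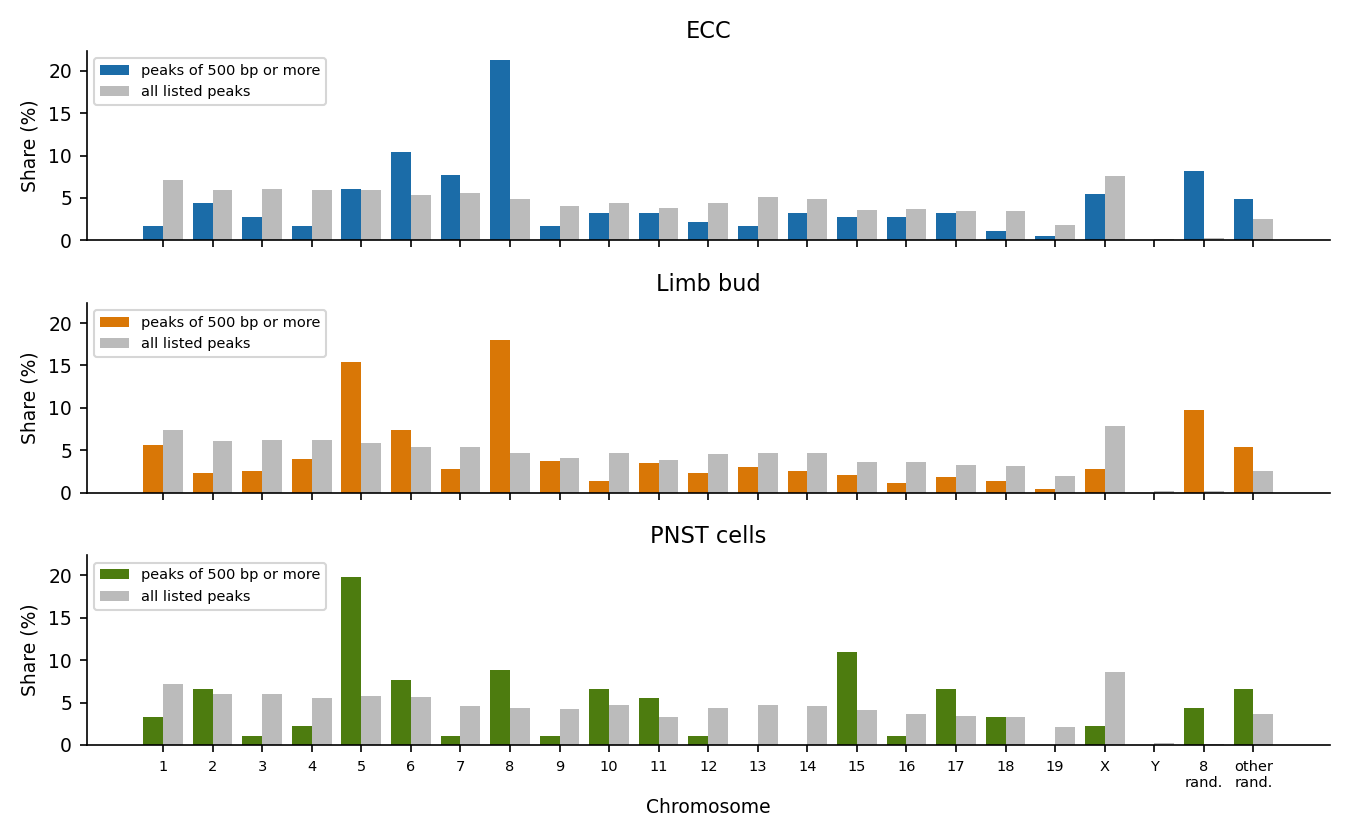
Share of peaks (%) on each chromosome, on 8_random and on the other random sequences, for peaks of 500 bp or more (coloured bars) and all listed peaks (grey bars) in the 3 tissues. Chromosome 8 stands out in ECCs (21.3% of long peaks) and limb buds (18%), chromosome 5 in limb buds (15.4%) and PNST cells (19.8%) and chromosome 15 in PNST cells (11%).

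Within chromosomes, long peaks lay in clusters. When long peaks of any tissue within 100 Kb of each other were chained, a definition chosen after seeing the data, 20 clusters had at least 5 long peaks. They held 110 of the long peaks in ECCs (60.1%) and 233 in limb buds (55.1%), with 46 in PNST cells (50.5%). The rule itself asks for many long peaks, so that these shares describe it and are no test of clustering. The largest, chr5:14905272-15220545, spans Speer genes, which encode spermatogenesis-associated proteins rich in glutamate, and Gm17019. It held 9, 53 and 15 long peaks among 36, 77 and 25 peaks of any length. The cluster at chr8:19679598-20037444, around 4930467E23Rik, 6820431F20Rik and Gm15319, held 21, 46 and 5 long peaks among 28, 65 and 8. That at chr8_random:679405-840564 held 12, 26 and 4 among 20, 36 and 7. Around the Rn4.5s copies, which encode a small RNA, chr6:47602671-47727343 held 14, 12 and 6 among 15, 20 and 10.

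Some clusters were uneven between tissues. The Snord116l1 copies at chr7:67002827-67047307, small nucleolar RNA genes of an imprinted region, carried 14 long peaks in ECCs and 4 in limb buds, with 1 in PNST cells. There, peaks of any length held 1025, 1808 and 78 tags. Per 1000000 filtered tags, the order was reversed between ECCs and limb buds, with 325, 121 and 6.6. The 4 limb bud peaks ran up to 3738 bp. A cluster in Mid1, chrX:166424053-166445440, held 5 long peaks in ECCs and 7 in limb buds. Mid1 encodes a microtubule-binding ubiquitin ligase and spans the pseudoautosomal boundary in laboratory mice. PNST cells had 16 peaks in that cluster, none of them long. The clusters on chromosome 1 around Gm7609 (chr1:84960085-85257406) and around Sp110 and Sp140 (chr1:87356925-87507026), genes of nuclear body proteins, held 9 and 6 long peaks in limb buds and none in the other tissues. ECCs had 14 and 7 shorter peaks there, and PNST cells 1 in each.

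A gene lay within 50 Kb of 122 of 183 long peaks in ECCs (66.7%, 59.6 to 73.1) and 267 of 423 in limb buds (63.1%, 58.4 to 67.6), with 58 of 91 in PNST cells (63.7%, 53.5 to 72.9). The shares over all peaks were 54.8%, 53% and 49.5%. These long peaks named 71, 154 and 38 genes, and 21 genes in all 3. Peaks of any length named 5313, 12792 and 3453 genes within 50 Kb, and 1538 in all 3. At least 3 long peaks flanked 12, 20 and 6 genes, respectively. Speer8-ps1 was flanked by 3, 20 and 5 long peaks and Gm17019 by 2, 15 and 7. Sfi1, which encodes a centrin-binding protein, was flanked by 4, 8 and 4. Rn4.5s had 14, 12 and 6, and 4933403O03Rik, by the homeobox gene Dux, had 3, 3 and 2. Without a peak of this length in PNST cells were Mid1 (5 and 7), 2610005L07Rik (5 and 8), Gm9758 (1 and 9) and Speer4e (2 and 7). Csprs (4), Sp110 (3) and Defb48-ps (3) had long peaks within 50 Kb in limb buds alone, although 3 long ECC peaks lay 52608 to 60582 bp from Defb48-ps.

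Genes that the study tested by ChIP-qPCR, or placed on its adhesion and migration lists, were looked for within 50 Kb of long peaks. The study chose these lists on these samples, so that they are not independent evidence. Among 26 genes tested by ChIP-qPCR, 3 had a long peak within 50 Kb in ECCs (Lect1, Mid1 and Tmem18) and 2 in limb buds (Mid1 and Tmem18), with 0 in PNST cells. Peaks of any length lay by 21, 25 and 17 of them. As a share of all genes by long peaks, the ChIP-qPCR genes made up 4.23% in ECCs and 1.3% in limb buds, against 0.395% and 0.195% of all genes by any peak. In PNST cells they made up 0% of genes by long peaks, against 0.492% by any peak. Lect1, which encodes chondromodulin, lay 1758 bp from an ECC peak of 1118 bp with 48 tags and a fold enrichment of 14.88. That peak was overlapped in 1 other tissue. The peak 5882 bp from Tmem18, a nuclear membrane protein gene, measured 566 bp in ECCs and 563 bp in limb buds, with 55 and 230 tags and fold enrichments of 45.74 and 40.55. PNST cells had 32 tags in a shorter peak there. By ChIP-qPCR, the study reported Twist1 at its Tmem18 region in limb buds only and at its Lect1 region in ECCs only. It also reported Twist1 at an intronic Mid1 region in both ECCs and limb buds. Whether those regions are the peaks given here was not checked. In Mid1, the long ECC peaks held between 61 and 132 tags and the long limb bud peaks between 107 and 633.

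The ECC list of 122 adhesion genes had 2 members by a long ECC peak, the cadherin Cdh26 (23 tags, 41699 bp away) and the scaffold protein gene Mpdz (24 tags, 206 bp away). This was 2.82% of the 71 genes by long ECC peaks, against 2.26% of the 5313 genes by any ECC peak. Il12a had a long peak in limb buds (42 tags) and Col19a1 in PNST cells, at the mitochondrial copy described below. Genes of this list were 0.649% of genes by long limb bud peaks, against 0.844% by any limb bud peak. For PNST cells the shares were 2.63% and 1.19%. On the limb bud list of 111 migration genes, Hrh1 (68 tags), Myo5a (53 tags) and Tmem18 lay by a long limb bud peak, and Tmem18 by a long ECC peak. The former were 1.95% of genes by long limb bud peaks, against 0.711% by any limb bud peak, and the latter 1.41% against 0.998%. The PNST list of 16 adhesion genes had 0 members by a long peak of any tissue, and its members made up 0.463% of genes by any PNST peak.

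In ECCs, the 5 long peaks with the most tags that were found in no other tissue lay in repeated clusters. The first, chr8:56201106-56203364, held 194 tags (8.59 tags per 100 bp, fold enrichment 3.89) next to a locus called long in all tissues. Peaks among the Rn4.5s copies (chr6:47693399-47694676 and chr6:47698213-47699040) held 133 and 91 tags, and peaks among the Snord116l1 copies (chr7:67008436-67009578 and chr7:67011030-67011964) held 93 and 83. Their fold enrichments lay between 3.89 and 6.04.

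Limb bud only peaks were led by chr8:20022357-20024999, which held 418 tags 2187 bp from 6820431F20Rik. Next came chr11:3058380-3060250 and chr11:3084246-3086393 in Sfi1, with 399 and 374 tags, and chr8:19957769-19960089 and chr8:19989536-19991571, with 328 and 291. Fold enrichment at these 5 peaks was low, between 2.69 and 3.19. Each lay in a cluster that also held long ECC peaks.

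Of the PNST only long peaks, 9 of 30 lay in the 20 clusters and 21 outside, while 22 of 34 ECC only and 91 of 191 limb bud only long peaks lay in them. The longest PNST peak, chr15:61644450-61650270, held 815 tags over 5821 bp, at 14 tags per 100 bp with a fold enrichment of 8.16, and lay 172446 bp from Myc, the helix-loop-helix leucine zipper oncogene. The peak chr15:61500998-61503981 held 334 tags. Another, chr15:62055977-62057755, held 195 tags 17752 bp from Pvt1, a noncoding RNA gene beside Myc, and 6881 bp from H2afy3. Between 61 and 63 Mb of chromosome 15, a range set after the values were seen, PNST cells had 9 peaks of which 7 were long, with 1573 tags over 13312 bp. ECCs had 7 peaks and limb buds 35, the longest of 232 and 226 bp, with 44 and 380 tags.

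Elsewhere, 4 PNST only long peaks lay side by side on chromosome 10, between H60c and Lrp11. They measured 1276, 1018, 1335 and 627 bp and held 234, 192, 197 and 103 tags. Between 7 and 8 Mb of that chromosome, ECCs had 3 peaks and limb buds 20, with none over 320 bp. The tandem repeat at chr5:37051896-37052828, inside D5Ertd579e by the annotation, held 386 tags, at 41.4 tags per 100 bp the densest of the PNST only long peaks named here, with a fold enrichment of 29.87. The tandem repeat at chr1:135491075-135492726, 9373 bp from the splicing factor gene Snrpe, held 226 tags. Control reads were not analysed here.

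Sequence could be read for 159 long ECC peaks, 359 long limb bud peaks and 81 long PNST peaks on assembled chromosomes. Their 32-mers were counted over the whole mm9 assembly on both strands. Over 50% of the 32-mers occurred more than once in 89.3% of long ECC peaks (142 of 159, 83.5 to 93.2), 94.7% of long limb bud peaks (340 of 359, 91.9 to 96.6) and 79% of long PNST peaks (64 of 81, 68.9 to 86.5). Among 25597 windows of 700 bp placed every 100000 bp along the chromosomes, this share was 12.9%. Peaks under 500 bp were higher still, at 94.9% (94.5 to 95.3), 98.6% (98.5 to 98.7) and 96.3% (95.8 to 96.7), and in each tissue the interval of the long peaks lay below theirs.

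The number of copies was also lower in long peaks. The median 32-mer of a long peak occurred 6 times in ECCs (quartiles 3 and 14) and 7 times in limb buds (4 and 49), and 4 times in PNST cells (2 and 7). In peaks under 500 bp it occurred 210, 462 and 228 times. Long limb bud peaks found in no other tissue had quartiles of 5 and 584 copies. Joined by similarity (at least 80% identity over 50% of the shorter locus), 323 of the 454 placed loci (71.1%) fell into 65 families of 2 or more, grouped after the data were seen. The largest had 52 loci on 17 chromosomes with a median of 718 copies of each 32-mer. It held 50 long peaks of limb buds, 4 of ECCs and 0 of PNST cells, and 42 of its loci were listed for limb buds alone. Among all 524 loci, 189 (36.1%) were listed for limb buds alone. Of all limb bud peaks, 91.1% were overlapped by no other tissue. The next, of 29 loci on 6 chromosomes with a GC content of 62.9%, was led by a locus among the Rn4.5s copies and held 22, 18 and 0 long peaks.

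Only 4 loci had no repeated 32-mer. Single-copy long peaks, with under 5% of 32-mers repeated, numbered 2, 3 and 7. They lay in Sfi1 and its neighbour Drg1 on chromosome 11 and, for 4 of the PNST peaks, between 61 and 63 Mb of chromosome 15. The Sfi1 peak chr11:3042192-3045559, at 661 tags in limb buds, had 3.42% of 32-mers repeated, and the chromosome 15 peak with 334 tags had 0.339%. The longest PNST peak had 8.1%.

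Long peaks lay near a gap of the assembly more often than shorter peaks did. A gap of at least 1000 bp was found within 50 Kb of 37.1% of long ECC peaks (59 of 159, 30 to 44.8), 23.4% of long limb bud peaks (84 of 359, 19.3 to 28) and 43.2% of long PNST peaks (35 of 81, 33 to 54.1). Among peaks under 500 bp, these shares were 1.83%, 1.19% and 1.6%, and among the windows of 700 bp 0.828%. The intervals of long and shorter peaks were far apart in each tissue. They treat peaks as independent, while neighbouring long peaks of a cluster can lie by the same gap, so they are no test of a difference. Of long limb bud peaks found in no other tissue, 11.9% lay near a gap (7.79 to 17.9), against 34.7% of those overlapped in 1 other tissue (27.4 to 42.8).

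**Figure D5:**
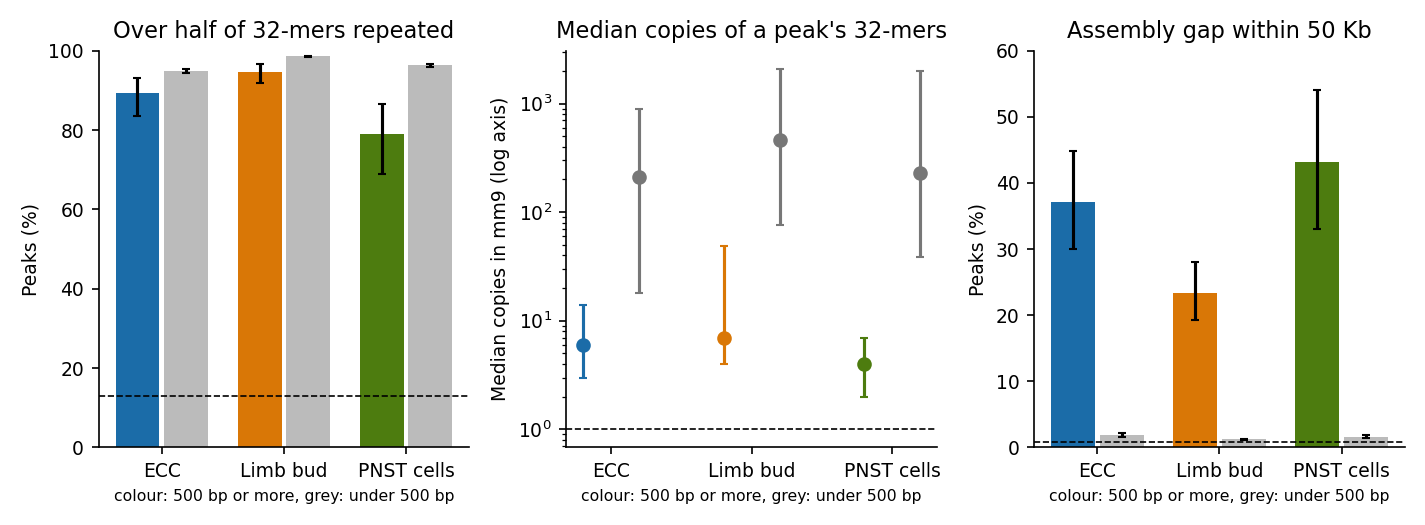
Left, share of peaks (%) with over 50% of their 32-mers repeated in mm9. Middle, median copies of the 32-mers of a peak (log axis, median and quartiles over peaks). Right, share of peaks (%) with an assembly gap of at least 1000 bp within 50 Kb. Colours mark peaks of 500 bp or more and grey shorter peaks, black whiskers on the bars are 95% Wilson intervals, and dashed lines give the windows of 700 bp. Long peaks have fewer copies (6, 7 and 4 against 210, 462 and 228) and more often have a gap within 50 Kb (37.1%, 23.4% and 43.2% against 1.83%, 1.19% and 1.6%).

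Mitochondrial sequence covered over 50% of 4 loci. At chr1:24618347-24623022, 24158 bp from the collagen gene Col19a1, 99.4% of the locus matched the mitochondrial genome at an identity of 100% to 3 digits. PNST cells had 813 tags in a single peak of 4676 bp, while ECCs had 44 tags in 2 short peaks and limb buds 88 tags in 3. Inside Myo3a, chr2:22443059-22443970 gave 114 tags in PNST cells against 7 and 9, and chr2:22444648-22445791 gave 137 against 37 in limb buds, with no peak listed for ECCs. PNST cells were highest at each of these loci. At the remaining locus, chr10:95540063-95540585 near Eea1, ECCs had a long peak with 35 tags, PNST cells 77 tags in a shorter one and limb buds no listed peak.

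An E-box was present in 78.6% of placed long peaks in ECCs (125 of 159, 71.6 to 84.3) and 84.4% in limb buds (303 of 359, 80.3 to 87.8), with 80.2% in PNST cells (65 of 81, 70.3 to 87.5). The motif CANNTG reads the same on both strands. Windows of 700 bp along the genome held it in 97.4% of cases, so that length alone gives most windows of this size an E-box. The share was lower in the long peaks of each tissue, whose lengths were not matched to these windows. Per length, long peaks held 5.76, 5.44 and 5.06 E-boxes per Kb and the assembled genome 5.55. Within 50 bp of the summit, an E-box was found in 34.6% of long ECC peaks (27.6 to 42.3), 39.3% of long limb bud peaks (34.4 to 44.4) and 23.5% of long PNST peaks (15.6 to 33.8). Peaks under 500 bp gave 38.6%, 39.9% and 40.9%, and windows of 101 bp over the genome 41%. The PNST interval lay below its shorter peaks and below the genome, and the other tissues did not differ from theirs beyond the intervals. As these intervals treat clustered and copied peaks as independent, they are no test of a difference.

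The GC content of long peaks was 54.6%, 50.9% and 43.3%, against 41.8% in the genome, and was close to that of peaks under 500 bp in the same tissue (54%, 51.4% and 42.5%). In the annotation, the summits of long peaks were intergenic in 58.5% (50.7 to 65.9), 57.1% (51.9 to 62.1) and 60.5% (49.6 to 70.4). They were intronic in 30.8%, 33.7% and 34.6%, and lay in an exon in 10.7%, 9.19% and 4.94%. Exons of protein-coding genes held 10, 18 and 3 summits, and exons of pseudogenes 2, 6 and 1.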

How the data were processed

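Twist1 ChIP-seq was performed in 1 pooled sample each of ECCs, limb buds and PNST cells. The authors sequenced single reads, aligned them to mm9 (Eland v2 and Bowtie are named), and called peaks with MACS 1.4.2 at a p-value of 1e-05, a band width of 300 bp and at most 1 tag per position. The headers name no control file, while the methods name FVB/N genomic DNA. The deposited tag counts are not normalized for depth, the deposited p-value score is 10 times −log10 of p, and the deposited fold enrichment is a ratio to a background that is either the library itself or that control. Other deposited columns are positions, lengths and distances in bp to the nearest gene on either side.

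Peaks of at least 500 bp were taken from each list. Tags were scaled to length, to the filtered tags of the header, or to their mean over the effective genome (1870000000 bp). Loci joined long peaks that touch. Sequence was read from the NCBI Build 37 (mm9) assembly, in which no placed peak ran past a chromosome end, and genes from GENCODE vM1. Unplaced sequences, named with random in the lists, were not read. Tandem shifts were searched up to 1000 bp, and similarity with BLAST+ 2.17.0. Shares have 95% Wilson intervals (Python 3.11.15), which cover counting error only and treat peaks as independent. The overlap and tandem code was tested on simulated data. No test across samples was possible with 1 sample for each tissue.

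Loci named are those with the most tags in all lists, the longest and densest peaks, the strongest peaks of 1 tissue and genes by at least 3 long peaks. Col19a1 and other mitochondrial copies, clusters, families, tandem repeats, the region near Myc and the sequences shown were chosen after their values were seen. The members and lists were chosen with earlier results of these data known. Alternatives changed the length, the overlap, the p-value, the gene distance and the sequences used.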

Additional observations from a re-analysis of the deposited data

How the results depend on the processing

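A length of 400 bp gave 321, 822 and 143 long peaks (ECCs, limb buds, PNST cells), a length of 1000 bp 43, 93 and 35, and a p-value of 1e-10 107, 258 and 47. Merging peaks within 200 bp gave 938 in limb buds. Overlap in both other tissues was 14.8%, 6.62% and 20.9% with a reciprocal overlap of 50%, and 14.2%, 6.38% and 31.9% when only long peaks of the other lists counted. It was 48.8% in ECCs and 22.6% in limb buds at 1000 bp, 11.8% in limb buds at 400 bp, and 20.6% in limb buds and 56% in PNST cells when a peak within 1000 bp counted. Peaks of 1 tissue made up 35.5%, 64.8% and 60.4% under the reciprocal overlap, and 36.2% in limb buds within 1000 bp. The cause of these shifts was not tested beyond the construction of each setting. With tags before the duplicate filter as the total, the common loci gave medians of 50.5, 24.6 and 16.5 tags per 1000000 total tags. At 400 bp, 11.3% of long limb bud peaks were on unplaced sequence. Within 10 Kb of a gene lay 43.2%, 37.6% and 41.8%, and 73.5% of ECC only long peaks lay within 50 Kb. An E-box within 50 bp of the summit was found in 34.6%, 39.3% and 23.5%. Loci long in all lists numbered 19 to 29 under the alternatives run. Of 78 values under alternatives, 43 moved by less than their interval or by less than 1.5 times. No paired analysis was possible because each tissue has 1 sample. The depth of 1 pooled sample limits which weak peaks could be listed, and copies missing from mm9 could not be counted.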
